A study of Mus musculus with 21 samples.

Results

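The genes described here handle retinoids in the newborn mouse brain: transthyretin (Ttr), the retinol carrier Rbp4, the retinol receptor Stra6, the retinaldehyde dehydrogenases Aldh1a1, Aldh1a2 and Aldh1a3, the cellular retinoic acid binding proteins Crabp1 and Crabp2, and the retinoic acid hydroxylase Cyp26b1. They were taken by gene name from a table of 31883 genes, and all 9 were found. The libraries are bulk RNA sequencing of the subcommissural organ (SCO), a secretory ependymal gland in the roof of the third ventricle, and of the hippocampus, both from C57BL/6 mice on postnatal day 0 (P0). There are 4 SCO and 5 hippocampus libraries. The labels name no treatment, allele or sex, and do not say whether a library comes from 1 animal or whether tissue was pooled, so a p-value covers only the variation among these libraries, which may be technical. A further 12 samples, from postnatal day 60, are not analysed here.

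Retinol travels in blood and cerebrospinal fluid bound to RBP4, which in turn binds transthyretin, a protein that also carries thyroxine and is made in the brain mainly by the choroid plexus. STRA6 takes retinol from RBP4 into cells. Inside, retinol is oxidised to retinaldehyde and then, by the ALDH1A enzymes, to retinoic acid, a ligand of nuclear receptors. CRABP proteins bind retinoic acid in the cytoplasm and CYP26 enzymes break it down. In the developing forebrain the meninges are a known site of Aldh1a2 expression.

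The unit below is the normalized count, a gene's reads after division by the size factor of its library. The 9 genes were chosen with the difference between SCO and hippocampus in view, so their differences are a description with no test. Each log2 fold change is the SCO mean minus the hippocampus mean of log2(normalized count + 1), given with its standard error (SE) from a limma fit to all genes.

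Rbp4 was the member whose tissues did not overlap, and Cyp26b1 the one without a read in SCO. The promoter windows of both are shown because they stand at opposite ends of the group. They are RefSeq windows of 300 bases in build GRCm38.p6, from 250 bases before to 50 bases after an annotated start, read 5′ to 3′ on the minus strand of each gene. Rbp4 has both an upstream start, in chr19:38125272-38125571, and a downstream start, in chr19:38124762-38125061. The window of Cyp26b1 is chr6:84593761-84594060. Capitals mark the letters TATAAA or a retinoid receptor half-site (AGGTCA, its common variant AGTTCA, or either of these beginning with GG in place of AG, which read as GGGTCA and, for the other, GGTTCA), searched on both strands.
Rbp4 upstream start: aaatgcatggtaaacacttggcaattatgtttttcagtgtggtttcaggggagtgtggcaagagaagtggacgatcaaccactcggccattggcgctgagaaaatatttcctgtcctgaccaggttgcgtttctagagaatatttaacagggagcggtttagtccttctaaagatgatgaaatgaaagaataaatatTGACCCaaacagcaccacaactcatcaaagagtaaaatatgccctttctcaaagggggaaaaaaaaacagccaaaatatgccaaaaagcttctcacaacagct
Rbp4 downstream start: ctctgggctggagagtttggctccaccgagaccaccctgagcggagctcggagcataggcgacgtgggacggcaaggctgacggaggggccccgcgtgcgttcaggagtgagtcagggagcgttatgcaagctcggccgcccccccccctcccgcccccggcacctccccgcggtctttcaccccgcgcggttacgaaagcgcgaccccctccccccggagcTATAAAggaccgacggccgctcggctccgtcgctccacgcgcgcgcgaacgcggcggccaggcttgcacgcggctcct
Cyp26b1 start: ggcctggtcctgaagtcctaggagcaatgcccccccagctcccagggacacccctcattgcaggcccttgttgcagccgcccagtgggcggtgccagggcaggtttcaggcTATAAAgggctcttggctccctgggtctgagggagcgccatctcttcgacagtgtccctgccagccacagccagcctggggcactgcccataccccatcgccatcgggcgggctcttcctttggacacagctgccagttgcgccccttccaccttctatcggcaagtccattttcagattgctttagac

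The upstream Rbp4 window held 1 half-site, read on the other strand as TGACCC, 53 bases before the start, and 43.7% of 32851 promoter windows in the table held such a half-site. TATAAA lay 28 bases before the downstream Rbp4 start and 139 bases before the Cyp26b1 start, and 13.6% of all windows held it. These distances are from the RefSeq start of each window. The GENCODE annotation of Cyp26b1 begins further upstream, at chr6:84593908 within the window, and TATAAA lies closer to that position. No direct repeat of half-sites spaced by 1, 2 or 5 bases was found in these windows, and 0.222%, 0.268% and 0.0974% of all windows held one. A match is a description of the letters only. Of the 9 genes, 6 had a window in the table.

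**Figure D1:**
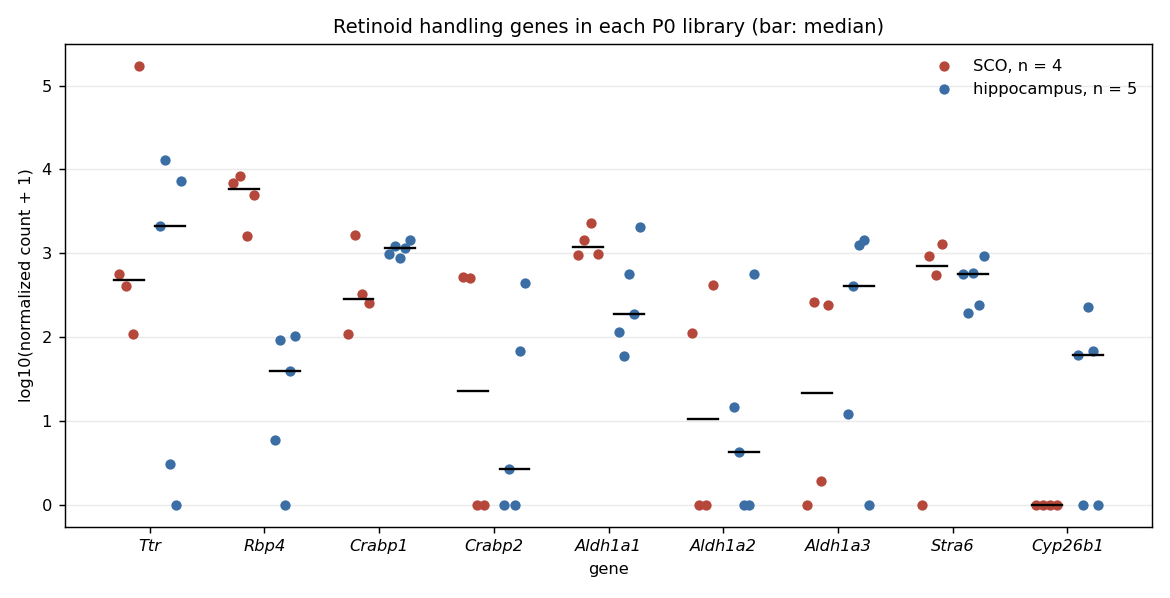
Normalized counts of the 9 retinoid handling genes in each P0 library, on a log10(normalized count + 1) axis, with SCO (red, n = 4) left of hippocampus (blue, n = 5) and a bar at the median of the plotted log values. Rbp4 shows no overlap between the tissues, Cyp26b1 sits at 0 in every SCO library, and the Ttr points span more than the rest.

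Among the carriers, Rbp4 was the gene that set the tissues apart. It had 6857, 8273, 1593 and 4915 normalized counts in SCO replicates 1 to 4, against 4.99, 90.8, 0, 38.4 and 103 in hippocampus replicates 1 to 5. All SCO libraries stood above all hippocampus libraries, and the lowest SCO library, replicate 3, was still far above the highest hippocampus library. The means were 5410 ± 2893 in SCO (SD, n = 4) and 47.4 ± 47.6 in hippocampus (SD, n = 5), a ratio of 114. On the log2 scale the difference was 7.94 (SE 1.34), and it ranged from 6.89 to 8.56 when each library was left out in turn. The gene (ENSMUSG00000024990.13) is annotated at chr19:38116629-38125281 in GRCm38, minus strand. The counting summed reads over the gene, so exons and the starts printed above are not resolved.

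Of the 9 genes, 1 passed an adjusted p of 0.05 in limma over all genes, Rbp4, where 3.05% of the 28150 genes tested passed. It was also the 1 gene of the 9 without overlap between the tissues, where 8.52% of all tested genes had none. These counts describe the contrast the genes were chosen on, and nothing is read from them. All 9 passed the filter on low values.

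Ttr differed more between libraries than between tissues. SCO replicates 1 to 4 had 560, 403, 108 and 171311 normalized counts, against 2133, 12985, 2.06, 0 and 7234 in hippocampus replicates 1 to 5. SCO replicate 4 stood above every other library, while the other SCO libraries lay below 3 of the 5 hippocampus libraries. That single library held 88.2% of Ttr when the reads per 1000000 of each library were summed over the 9 libraries. The mean was 43095 ± 85478 in SCO (n = 4) and 4471 ± 5602 in hippocampus (n = 5), whereas the median was 481 in SCO and 2133 in hippocampus. Mean and median thus put the tissues in opposite order. The log2 fold change was 2.65 (SE 3.20), and 0.35 without SCO replicate 4, where the SCO mean was 357 ± 229. It was 1.10 without hippocampus replicate 3 and 0.70 without hippocampus replicate 4. Hippocampus replicate 4, the deepest library with 151009954 reads, held no Ttr read, which allows up to 1.10 normalized counts by the limit of 3 reads. The authors' deposited table gives Ttr a log2 fold change of 3.27 with a standard error of 2.42 and no p-value. The gene (ENSMUSG00000061808.4) is annotated at chr18:20665280-20674321, plus strand.

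Choroid plexus genes were measured beside Ttr in the same libraries. A list of 20 markers without Ttr took 0.0703%, 0.0742%, 0.0647% and 0.146% of reads in SCO replicates 1 to 4, against 0.0138%, 0.00764%, 0.0113%, 0.0134% and 0.0215% in hippocampus replicates 1 to 5. SCO replicate 4 was highest in this sum as in Ttr, with 1 of the 20 markers at 0, where the other SCO libraries had 6 or 7 at 0. The largest SCO means in the list were those of Enpp2, a secreted lysophospholipase gene, Otx2 and Calml4. Enpp2 had 13112, 15664, 18243 and 49097 normalized counts in SCO replicates 1 to 4. Otx2 was steady at 7705 to 8708, and Calml4 was lowest in replicate 4 (5219). The sum thus does not by itself measure choroid plexus tissue. Of the 19 tested, 3 rose in SCO (Calml4, Abca4 and Otx2) and 0 fell, by limma over all genes, where 1.71% of all tested genes rose.

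Of the 19 markers read in SCO, 13 were highest in replicate 4, 3 in replicate 1 and 3 in replicate 2. Kcnj13, an inward rectifier potassium channel, had 0, 260, 0 and 2835 normalized counts in SCO replicates 1 to 4 and no read in any hippocampus library. Tmem72, a membrane protein of choroid plexus and kidney, had 2.98, 0, 35.6 and 534 in SCO and no read in hippocampus. Kcne2, a potassium channel subunit, had 10.4, 14.8, 0 and 837 in SCO, against 1.25, 3.30, 2.06, 0 and 431 in hippocampus. Other markers did not follow that library. Aqp1, a water channel gene, had 1373, 0, 0 and 462 in SCO, against 49.9, 0, 0, 0 and 0 in hippocampus. Abca4, a lipid transporter gene, was lowest in SCO replicate 4, with 843, 468, 415 and 91.8 in SCO, against 0, 1.65, 0, 11.3 and 0.381 in hippocampus.

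In the hippocampus, replicate 2 was highest in Ttr and lowest in the choroid plexus sum. That sum, too, is weighted by Enpp2, which had 877 normalized counts in replicate 2 and 4240 to 8465 in the other hippocampus libraries. Of the 18 markers read in hippocampus, 6 were highest in replicate 2, among them the folate receptor gene Folr1 (948) and Sostdc1 (688), and 5 were highest in replicate 5. The part of choroid plexus tissue in the Ttr values, or in those of Rbp4, was not tested. In bulk samples, fewer cells of a type and less RNA per cell cannot be told apart.

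Other cell types also took unequal shares of the reads. Rises given here are by limma over all genes, where 1.71% of all tested genes rose. Red blood cell genes took 0.0812% to 0.148% of reads in SCO, against 0.00781% to 0.0445% in hippocampus, and 4 of the 6 rose in SCO. Motile cilia genes of ependymal cells took 0.0326% to 0.0575% in SCO, against 0.00509% to 0.0110% in hippocampus, and 4 of the 8 rose. Endothelial genes took 0.0211% to 0.0348% in SCO, against 0.0112% to 0.0193% in hippocampus, with 0 of 8 called. Retinal pigment epithelium genes took 0.00212% to 0.00563% in SCO, against 0.000361% to 0.00161% in hippocampus, and Pmel, a pigment granule gene, alone rose of the 5 tested. Like Rbp4, these 4 sums did not overlap between the tissues. Their part in the values of Rbp4 was not tested.

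**Figure D2:**
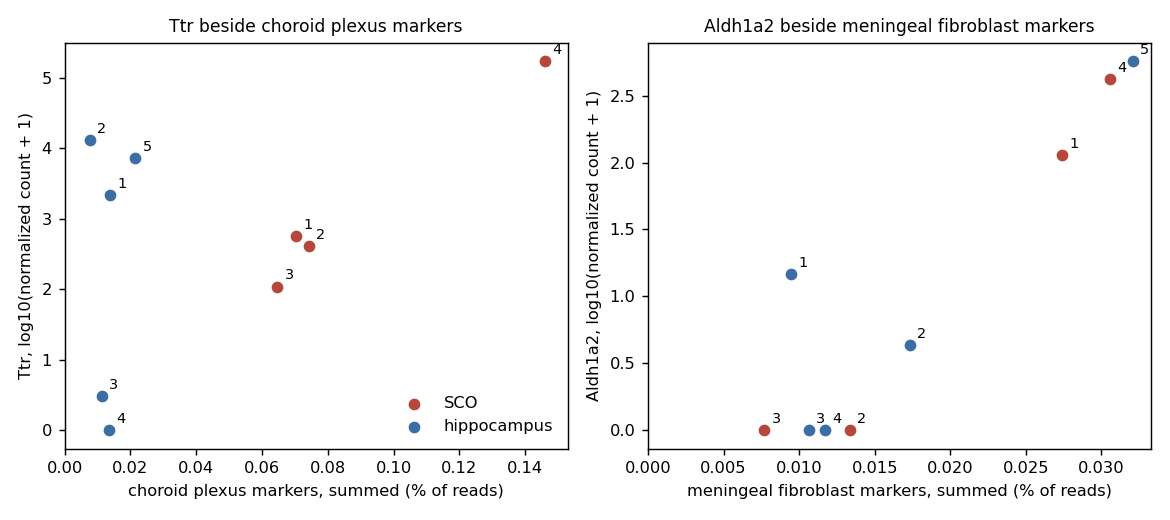
Left, Ttr on a log10(normalized count + 1) axis against the summed share of 20 choroid plexus markers without Ttr, in % of reads; right, Aldh1a2 against the summed share of 14 meningeal fibroblast markers. Points are libraries, red for SCO and blue for hippocampus, numbered by replicate: SCO replicate 4 is highest in both measures on the left, and SCO replicates 1 and 4 and hippocampus replicate 5 are the 3 highest in both on the right.

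Stra6, the membrane receptor that takes up retinol from RBP4, was read in both tissues at similar levels apart from 1 library. SCO replicates 1 to 4 had 0, 920, 544 and 1279 normalized counts, against 564, 191, 577, 243 and 919 in hippocampus replicates 1 to 5. The tissues overlapped, with SCO holding both the highest value and a 0. The log2 fold change was -1.42 (SE 1.85), and it was 1.02 without SCO replicate 1. Its sign also turned with all libraries kept in DESeq2 (0.46) and edgeR (0.43), so no direction can be given. On the ratio of means SCO was 1.37 times as high.

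The annotated Stra6 locus (chr9:58063788-58153996, plus strand) overlaps Ccdc33 on the other strand. Ccdc33, a coiled-coil gene, had 121, 892, 531 and 388 normalized counts in SCO and 48.7, 228, 156, 94.0 and 0 in hippocampus. Reads in the shared stretch cannot be assigned with certainty, since no source used here gives the strand setting.

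The retinoic acid synthesising enzymes differed from one another in which libraries they were read in. Aldh1a1 was the steadiest, with 965, 1457, 2296 and 974 normalized counts in SCO replicates 1 to 4, against 114, 57.8, 561, 188 and 2072 in hippocampus replicates 1 to 5. All SCO libraries exceeded 4 of the 5 hippocampus libraries, and hippocampus replicate 5 lay among the SCO values. The means were 1423 ± 625 in SCO (n = 4) and 599 ± 847 in hippocampus (n = 5), and the log2 fold change was 2.29 (SE 0.93, 1.74 to 3.03 with each library left out). On the recovered reads it was smaller, 1.25 in DESeq2 and 1.22 in edgeR.

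Some reads of Aldh1a1 could belong elsewhere. A transcript annotated on the other strand, C730002L08Rik, had 82.1, 242, 249 and 116 normalized counts in SCO and 0, 8.25, 457, 14.3 and 629 in hippocampus, where replicates 3 and 5 were also the highest in Aldh1a1. Aldh1a7, a close copy of Aldh1a1, had 0, 143, 0 and 3.36 normalized counts in SCO and 0, 0, 154, 0 and 2.66 in hippocampus. No source used here says how reads were divided between these genes. Midbrain dopamine neurons are another known site of Aldh1a1. Their 7 markers took 0.00333% to 0.0184% of reads in SCO, against 0.00560% to 0.0146% in hippocampus, and 0 were called in either direction. Slc6a3, the dopamine transporter gene, had no read in SCO and was read in hippocampus replicate 2 alone. Ddc, an enzyme gene of dopamine synthesis, averaged 928 in SCO (n = 4) and 451 in hippocampus (n = 5). Lmx1b, a transcription factor gene, had 148, 663, 0 and 217 in SCO, against 0, 0, 0, 0 and 12.9 in hippocampus. Slc18a2 and Nr4a2 went the other way, with means of 339 and 3293 in SCO against 1156 and 4660 in hippocampus. Th averaged 55.3 in SCO and 16.5 in hippocampus, and En1 3.42 and 2.17. The part of such neurons in the Aldh1a1 values was not tested. Aldh1a1 is annotated at chr19:20492715-20643465, plus strand.

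Aldh1a2, the enzyme of the meninges, had 112, 0, 0 and 416 normalized counts in SCO replicates 1 to 4, against 13.7, 3.30, 0, 0 and 571 in hippocampus replicates 1 to 5. The libraries fell into a few with reads and a majority at or near 0 in both tissues. The log2 fold change was 0.85 (SE 2.42). Its sign turned without SCO replicate 1 (-0.13) and without SCO replicate 4 (-0.76). Aldh1a2 is annotated at chr9:71215789-71296243, plus strand.

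Meningeal fibroblast markers, 14 in all, took 0.0274%, 0.0133%, 0.00771% and 0.0306% of reads in SCO replicates 1 to 4, against 0.00944%, 0.0173%, 0.0106%, 0.0117% and 0.0321% in hippocampus replicates 1 to 5. The 3 libraries with the largest sums, SCO replicates 1 and 4 and hippocampus replicate 5, were the 3 with the most Aldh1a2. Within each tissue, 8 of the 14 markers were highest in SCO replicate 4, 5 in SCO replicate 1 and 9 in hippocampus replicate 5. Other markers did not follow these libraries. Foxc1 and Tbx18 had no read in SCO replicate 4 or hippocampus replicate 5. Dcn was higher in hippocampus replicate 2 (5637) than in hippocampus replicate 5 (4275). Of the 14 markers 0 were called in either direction, and between 0 and 4 of the 14 were at 0 in a library. The part of meningeal tissue in the Aldh1a2 values was not tested.

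Aldh1a3, the third enzyme, was read more in hippocampus than in SCO on average. It had 0, 258, 0.913 and 237 normalized counts in SCO replicates 1 to 4, against 11.2, 406, 1248, 1438 and 0 in hippocampus replicates 1 to 5. The 3 highest values were hippocampus replicates 2, 3 and 4, yet hippocampus replicate 5 had no read, so the tissues overlapped. The means were 124 ± 143 in SCO (n = 4) and 621 ± 683 in hippocampus (n = 5), and the log2 fold change was -2.40 (SE 2.58). With each library left out it ran from -4.05, without hippocampus replicate 5, to -0.99, without SCO replicate 1. Aldh1a3 is annotated at chr7:66390890-66427517, minus strand. Hippocampus replicate 5, the library without Aldh1a3, held the most Aldh1a1 and Aldh1a2 of its tissue.

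Crabp1, a cytoplasmic binding protein of retinoic acid, was the one member with a narrow range in hippocampus. SCO replicates 1 to 4 had 109, 1654, 324 and 253 normalized counts, against 976, 1210, 871, 1142 and 1454 in hippocampus replicates 1 to 5. Of the SCO libraries, 3 lay below all hippocampus libraries and replicate 2 lay above them all. The means were 585 ± 718 in SCO (n = 4) and 1131 ± 225 in hippocampus (n = 5). The log2 fold change was -1.67 (SE 0.68), between -2.42 and -1.11 with each library left out, and -0.95 in DESeq2 on the recovered reads. The authors' deposited table lists Crabp1 with a log2 fold change of -0.95 and no p-value. Crabp1 is annotated at chr9:54764748-54773110 and Crabp2 at chr3:87948666-87953376, both on the plus strand.

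Crabp2, its paralog, which carries retinoic acid to the nuclear receptors, was present or absent by library. It had 519, 505, 0 and 0 normalized counts in SCO replicates 1 to 4, against 0, 1.65, 0, 66.9 and 446 in hippocampus replicates 1 to 5. In SCO it was read in replicates 1 and 2 alone, and in hippocampus mostly in replicate 5. The log2 fold change was 1.24 (SE 2.63), and its sign turned without SCO replicate 1 (-0.26) or SCO replicate 2 (-0.25). Both paralogs were high in SCO replicate 2, whereas in SCO replicate 1 Crabp2 was high and Crabp1 was at its lowest.

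Cyp26b1, which hydroxylates retinoic acid for clearance, had no read in any of the 4 SCO libraries, against 59.9, 0, 227, 66.9 and 0 normalized counts in hippocampus replicates 1 to 5. The tissues overlapped at 0, since hippocampus replicates 2 and 5 had no read either. Its hippocampus mean was 70.8 ± 92.9 (n = 5), which makes it at least 18.9-fold lower in SCO. The bound sets each SCO library to 3 reads, which average 3.75 normalized counts. Without hippocampus replicate 3 the bound is 8.45-fold. It covers counting error only. The gene (ENSMUSG00000063415.12) is annotated at chr6:84571414-84593908, minus strand.

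To compare genes with one another, levels were expressed as RPKM, the reads per kilobase of annotated exon per 1000000 reads of the library. By the median RPKM over libraries, the order in SCO was Rbp4 (80.7), Ttr (7.64), Crabp1 (6.23), Aldh1a1 (4.61), Crabp2 (3.57), Stra6 (2.27), Aldh1a2 (0.468), Aldh1a3 (0.456) and Cyp26b1 (0). Every pair of neighbours in that order had overlapping ranges. Rbp4 exceeded Ttr in 3 of the 4 SCO libraries, and in SCO replicate 4 Ttr reached 2552 RPKM where Rbp4 had 64.7. In hippocampus the order of median RPKM was Ttr (33.2), Crabp1 (24.8), Stra6 (1.79), Aldh1a3 (1.45), Aldh1a1 (0.691), Rbp4 (0.518), Cyp26b1 (0.207), Aldh1a2 (0.0240) and Crabp2 (0.0206). There, the step with no overlap of ranges was that between Crabp1 and Stra6, which held in 5 of 5 libraries.

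**Figure D3:**
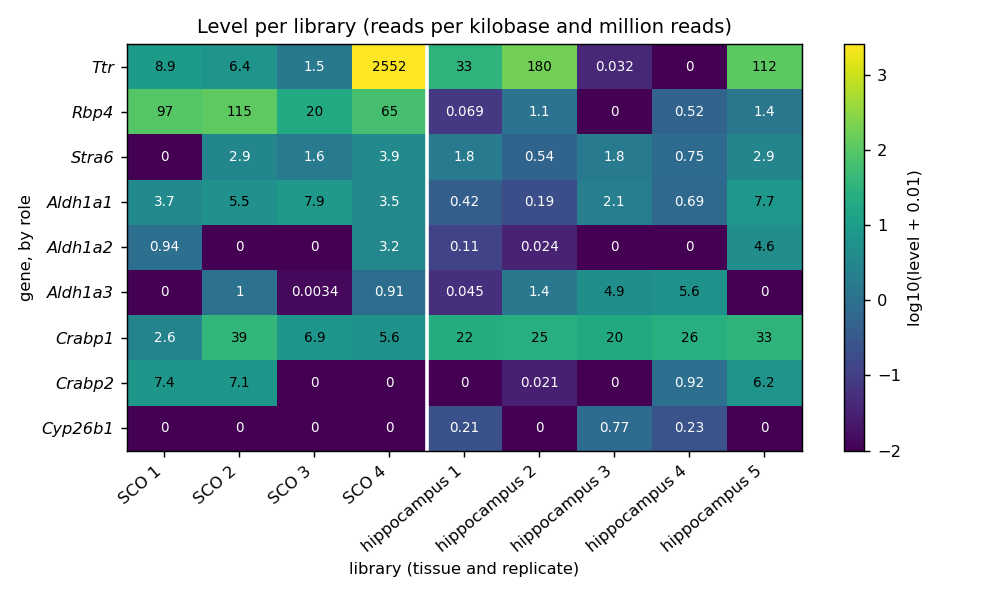
Level of each gene in each library in RPKM (printed in the cells, coloured on a log10(level + 0.01) scale), with genes in order of role and SCO libraries left of hippocampus libraries. Rbp4 runs from 20.2 to 115 RPKM in SCO and stays at 1.40 or below in hippocampus, and Ttr reaches 2552 in SCO replicate 4.

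Absence by library was common in the group. Of the 81 values of 9 genes in 9 libraries, 19 were 0, of which 10 of 36 were in SCO and 9 of 45 in hippocampus. Between 5 and 8 of the 9 genes had at least 3 reads in a library. Of the 6 genes with a mean between 100 and 1000 normalized counts, 4 had no read in at least 1 library. Among all 7988 tested genes in that range, 31.7% had no read in at least 1 library. Depth ran from 35379988 to 151009954 reads per library, and the 2 deepest, hippocampus replicates 4 and 5, still had members at 0. The markers went with the library labels. All 6 SCO markers rose, Sspo among them. Together they took 0.0487% to 0.0983% of reads in SCO against 0.00208% to 0.00466% in hippocampus. Of 10 markers of hippocampal excitatory neurons 8 fell, and Emx1 and Wfs1 did not pass. Wfs1 averaged higher in SCO (765 against 362). The marker lists were chosen with earlier results of these data known, so this is a description and no check of the labels.

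For each gene, the genes with the most similar pattern over the 9 libraries were found by Pearson correlation of log2 values after subtracting each tissue mean, among genes with a mean of at least 10 reads per 1000000 (9725 or 9726, since a gene is not set against itself). For Ttr these were Srrm2 (r = 0.94), Xrcc4 (0.93), Hspa4 (0.93), Ap1s2 (0.92) and Unc5c (0.91). Their own ranges were narrow beside that of Ttr: Srrm2, a splicing factor gene, had 7008, 6786, 4823 and 10526 normalized counts in SCO, against 6932, 10717, 4018, 2775 and 6503 in hippocampus. For Rbp4 the nearest were Rell1 (r = 0.98) and Polr3gl (0.94), and for Stra6 they were the ephrin receptor gene Ephb2 (r = 0.995) and Rap1gap2 (0.99). Ephb2, like Stra6, was lowest in SCO replicate 1, with 88.0 normalized counts there and 721 to 889 in the other SCO libraries. Among the enzymes, the nearest were Cpxm1 (r = 0.95) and Suclg2 (0.94) for Aldh1a1, Pak1ip1 (0.96) and Kctd5 (0.96) for Aldh1a2, and Rnf220 (0.95) and Tshz2 (0.94) for Aldh1a3. They were Mrgbp (r = 0.96) and Ogfrl1 (0.95) for Crabp1, Alkbh3 (0.98) and Stag3 (0.94) for Crabp2, and Gpd1 (0.98) and Galnt4 (0.96) for Cyp26b1. Cyp26b1 was 0 in every SCO library, so its likeness to other genes comes from the hippocampus libraries alone. The libraries are shared by all these values, so the correlations are a description. Each match is also the highest of 9725 or 9726 genes over 9 libraries, where a high r can arise without any link.

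Other genes of the pathway were taken from 4 lists of retinoid genes, without the 9, of which 45 were tested. In SCO 3 rose (Dhrs3, Tgm2 and Meis1) and 1 fell (Ncoa1), by limma over all genes, where 1.71% of all tested genes rose and 1.34% fell. Their median log2 fold change was 0.10, against -0.04 over all genes. Among 24 genes of retinoid uptake, storage and oxidation, 1 rose and 0 fell (median 0.50). Among 13 receptors and coregulators, 0 rose and 1 fell (median -0.30), and among 10 genes known to respond to retinoic acid, 3 rose and 0 fell (median 0.60). Of 2 further genes of retinoic acid delivery and clearance, 0 were called. Dhrs3, Lrat, Rarb and Nrip1 each stand in 2 of these lists, so the rise of Dhrs3 is counted in both of its lists.

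Dhrs3, which reduces retinaldehyde back to retinol and is itself a known target of retinoic acid, had 5329, 2361, 4757 and 4088 normalized counts in SCO, against 974, 815, 1362, 1478 and 596 in hippocampus. The tissues did not overlap, and the gene rose in SCO by 2.00 (log2, SE 0.37; limma, adjusted p = 0.0174). That call ended without SCO replicate 1 (limma adjusted p = 0.0547) and without SCO replicate 3 (0.0553). It also ended without SCO replicate 4 and hippocampus replicate 2 together (0.0595), and without hippocampus replicates 4 and 5 together (0.0528).

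Tgm2, a transglutaminase gene known to respond to retinoic acid, had 276, 1165, 391 and 1486 normalized counts in SCO, against 3.75, 0, 0, 120 and 0 in hippocampus. Its rise in log2 was 7.53 (SE 1.53; limma, adjusted p = 0.0269). The homeobox gene Meis1 had 968, 4979, 2422 and 1565 in SCO, against 0, 1.65, 244, 0 and 131 in hippocampus, a rise of 7.74 (SE 1.76; limma, adjusted p = 0.0426). Neither gene overlapped between the tissues. Each call ended with any of 7 of the 9 libraries left out, at limma adjusted p up to 0.0778 for Tgm2 and 0.121 for Meis1. Those libraries were all but hippocampus replicates 2 and 4 for Tgm2, and all but hippocampus replicates 3 and 5 for Meis1. In edgeR the adjusted p was 0.245 for Tgm2 and 0.204 for Meis1. Meis2, its relative, had 0, 698, 23.7 and 754 in SCO, against 3735, 3737, 2720, 2570 and 2980 in hippocampus, and did not pass at -5.69 (SE 1.68; limma, adjusted p = 0.107). It was chosen after its values were seen.

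The receptors themselves were mostly low and variable. Rxrg, a retinoid X receptor, had 2504, 2227, 3867 and 1640 normalized counts in SCO, against 513, 702, 798, 322 and 70.0 in hippocampus. Its tissues did not overlap, but it did not pass (2.73 in log2, SE 0.68; limma, adjusted p = 0.0616). Rara had 309, 610, 9.13 and 17.9 in SCO and 150, 121, 20.6, 0 and 12.9 in hippocampus, and Rarb 639, 294, 390 and 6.72 in SCO and 53.7, 149, 399, 296 and 274 in hippocampus. Rarg, Rxra and Rxrb overlapped as well, with log2 fold changes of 0.05, 1.34 and -0.30, and none of these 5 passed (limma adjusted p 0.657 to 0.993). Ncoa1, a coactivator of nuclear receptors, fell to 1240 ± 245 in SCO (n = 4), against 3593 ± 541 in hippocampus (n = 5), or -1.54 in log2 (SE 0.26; limma, adjusted p = 0.0105). The Ncoa1 call ended without hippocampus replicates 4 and 5 together (limma, adjusted p = 0.0795).

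Upstream of the ALDH1A enzymes, Rdh10, which oxidises retinol to retinaldehyde, had 759, 96.0, 720 and 1547 normalized counts in SCO, against 377, 129, 14.4, 49.7 and 1177 in hippocampus. It did not pass (1.99 in log2, SE 1.26; limma, adjusted p = 0.510). Rbp7, a retinol binding protein, had 3828 in SCO replicate 1 and at most 1.48 in the other SCO libraries, and at most 0.761 in hippocampus. Rbp7 was singled out after its values were seen.

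Transthyretin also carries thyroxine, so genes of thyroid hormone transport, conversion and reception were examined. Of 11 tested, 3 were lower in SCO (Crym, Dio2 and Thra) and 0 higher, by limma over all genes. Over all tested genes, 1.34% fell and 1.71% rose. This list, like the others, was chosen with earlier results of these data known, so the count is a description. The median log2 fold change of the list was -1.65, or -0.82 with the 3 genes that have no read in SCO (Dio1, Dio2 and Hr) set to their bound, against -0.04 over all genes. Crym, a cytoplasmic binding protein of triiodothyronine, had 806, 1477, 961 and 1238 normalized counts in SCO, against 33275, 57781, 30987, 32553 and 50184 in hippocampus. In log2 it fell by 5.18 (SE 0.27; limma, adjusted p = 4.92e-05), and all 4 SCO libraries lay below the hippocampus range.

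Dio2, the deiodinase that makes triiodothyronine from thyroxine, had no read in the 4 SCO libraries, against 181, 281, 656, 533 and 771 normalized counts in hippocampus. It was at least 129-fold lower in SCO against the limit of 3 reads per library (limma adjusted p = 0.000717). The receptor gene Thra had 2441, 647, 2635 and 3331 in SCO, against 7244, 11798, 6802, 7810 and 10927 in hippocampus (-2.17 in log2, SE 0.45; limma, adjusted p = 0.0297). The Thra call ended without SCO replicate 1 or any 1 of the 5 hippocampus replicates (limma adjusted p 0.0535 to 0.0623), without hippocampus replicates 4 and 5 together (0.131), and in edgeR (0.0501). Crym and the receptor genes are also known from neurons, and the hippocampal excitatory neuron markers took 0.0121% to 0.0189% of reads in SCO, against 0.188% to 0.286% in hippocampus. The part of neuronal content in these differences was not tested.

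**Figure D4:**
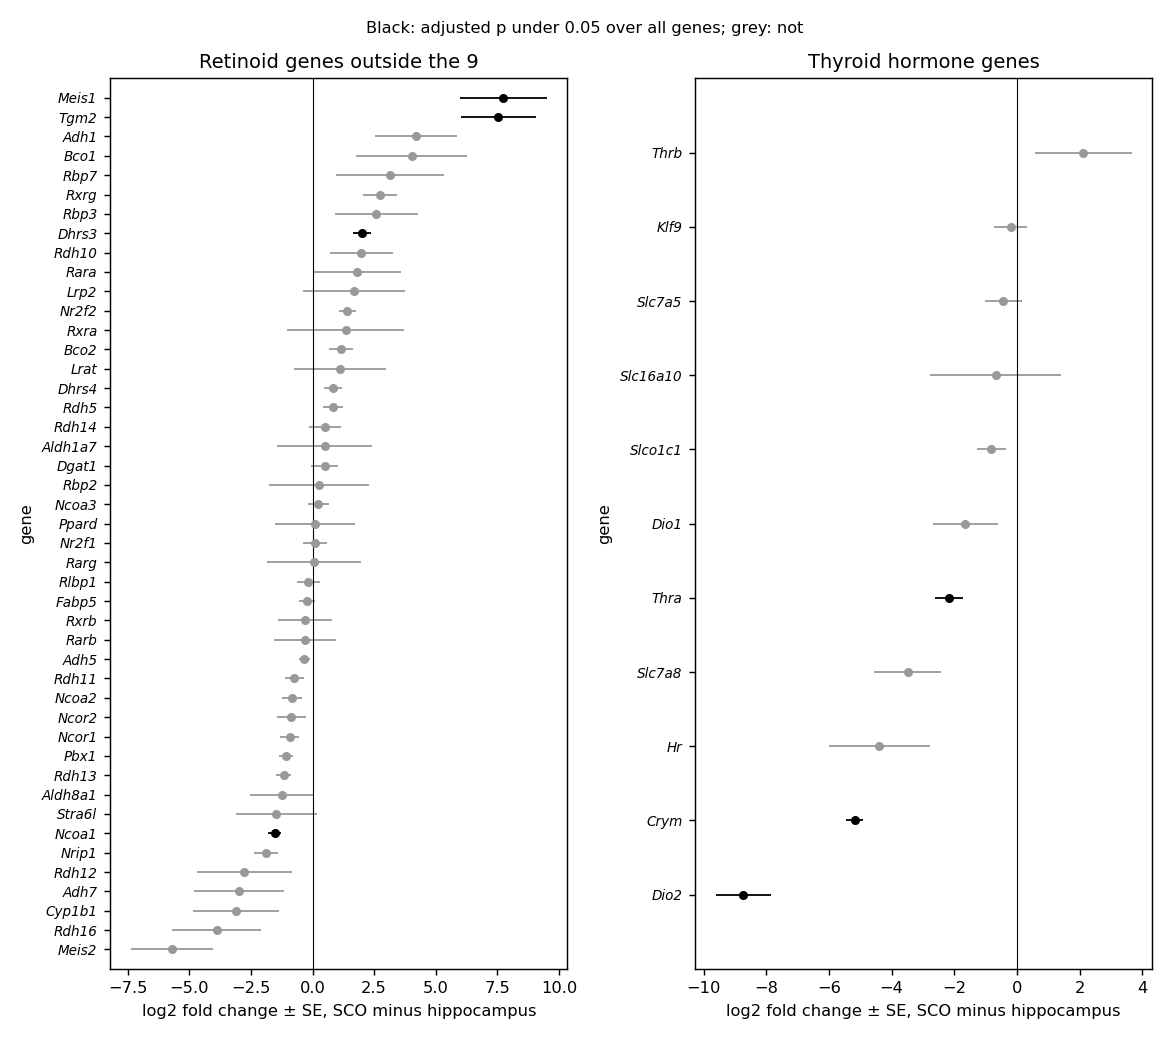
Log2 fold change (SCO minus hippocampus) with its SE for 45 retinoid genes outside the 9 (left) and 11 thyroid hormone genes (right), genes down the page. Black points passed an adjusted p of 0.05 over all genes: Meis1, Tgm2 and Dhrs3 above 0 and Ncoa1 below 0 on the left, and Thra, Crym and Dio2 below 0 on the right.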

How the data were processed

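Bulk RNA was sequenced from SCO and hippocampus. Per the labels' protocols, the RNeasy Micro Kit gave the RNA, and library construction used TruePrep reagents. FastQC, HISAT, HISAT2, featureCounts, DESeq2 and the build GRCm38 are named in the submitters' processing notes. No source used here gives the annotation, the strand setting or the handling of reads matching several genes. The authors deposited a normalized signal per library, which the values show to be read counts divided by 1 size factor per library. They also deposited columns named as in a DESeq2 results table: the authors' log2 fold change and its error, a test score, and a raw and an adjusted p-value. Whole reads were recovered for 100% of values (tolerance 1e-06). The number of columns of another series was 0.

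The 28150 genes that averaged 1 or more in SCO or in hippocampus were tested with limma-trend (limma 3.58.1, R 4.3.3) on log2(value + 1) without covariates, with Benjamini-Hochberg adjustment over all of them. edgeR 4.0.16 and DESeq2 1.42.0 on the recovered reads were alternatives (they called 503 and 2579 genes, against 859 in limma), beside other pseudocounts, filters, TMM scaling, robust moderation, a replicate block and left-out libraries. The fits were also run on simulated counts with the same spread setting for every gene. Several members scatter more than that, so the simulated run checks the code and not these calls. Figures were drawn with matplotlib 3.10.9 in Python 3.11.15. Members and lists were chosen with earlier results of these data known. Named genes are the 9 members, every called gene of the retinoid and thyroid hormone lists, a fixed set of receptors and enzymes, and for likeness 5 genes for Ttr and 2 for each other member; marker genes given beside a member, with Rbp7 and Meis2, were chosen after their values were seen. Some genes of the lists are not reported here, and the list counts leave them out. Of the fixed set, Cyp26a1, Cyp26c1 and Dio3 were not analysed here. Exon lengths and positions come from GENCODE M21 (31302 of 31883 identifiers matched), and promoter windows from RefSeq (GRCm38.p6).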

Additional observations from a re-analysis of the deposited data

Results flagged for a closer look

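Single libraries that stood far from the others of their tissue were found in 6 of 30 groups of values, checked for the 9 members and the 7 called genes of the lists in both tissues. The cut-off is set for about 1 in 20 groups of independent, normally distributed values. Normalized counts are skewed and the groups share libraries, so 6 of 30 was not read as an excess. In SCO, Ttr in replicate 4 (171311 normalized counts) and Crabp1 in replicate 2 (1654) stood above the other 3 libraries. In hippocampus, replicate 5 stood above the other 4 libraries in Crabp2 (446), Aldh1a1 (2072) and Aldh1a2 (571). Hippocampus replicate 4 stood apart in Tgm2 (120).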

How the results depend on the processing

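The number of genes called over all genes was 859. It was 2579 in DESeq2, 503 in edgeR, 449 without hippocampus replicates 4 and 5, and 498 to 1077 with each library left out (564 without SCO replicate 3, 565 without hippocampus replicate 1 and 498 without hippocampus replicate 3). Retinoid genes called higher in SCO numbered 3, against 5 in DESeq2, 1 in edgeR, 1 without SCO replicate 4 and hippocampus replicate 2, 1 without hippocampus replicates 4 and 5, and 0 to 3 with each library left out (0 without SCO replicate 1 or 3). Those called lower numbered 1, against 6 in DESeq2, 3 without SCO replicate 4 and hippocampus replicate 2, 0 without hippocampus replicates 4 and 5, and 1 to 3 with each library left out. Thyroid hormone genes called numbered 3, against 5 in DESeq2, 2 in edgeR, 2 without hippocampus replicates 4 and 5, and 2 to 3 with each library left out. The cause of these shifts was not tested. Depth limits genes without a read in a library to under 3 reads there.

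With the replicate number as a block, 1 gene was called over all genes, 0 retinoid genes rose, 0 fell, and 1 thyroid hormone gene was called, Crym. Replicate 5 exists in hippocampus alone, so the block fit gave the fold changes of the fit without that library, which called 723 genes. The block also leaves less data to estimate the spread. The lower count alone therefore does not show that the calls depend on the replicate number. Deviations of same-numbered libraries correlated at -0.03 to 0.02, and 0 of 4 correlated best with their own number. The labels do not say that equal numbers share an animal or a batch. Such correlations cannot decide it, and pairing by the numbers in the deposited column names, which mostly differ, was not tried. Over the 20 alternatives the log2 fold change of Rbp4 ran from 6.79 to 9.13. Its tissues did not overlap, so leaving out libraries could not turn its sign, and the kept sign is no check. Changing the filter or the moderation leaves a fold change as it was. Ttr ranged from 0.35 to 4.11, Aldh1a1 from 1.22 to 3.10, Aldh1a3 from -4.05 to -0.99, Cyp26b1 from -9.46 (edgeR) to -2.06, and Crabp2, Aldh1a2 and Stra6 changed sign in 2, 3 and 3 alternatives. For Stra6 these were DESeq2 (0.46), edgeR (0.43) and the fit without SCO replicate 1 (1.02).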
